A study of Mus musculus with 8 samples.

Results

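The nuclear genes of respiratory complexes II to V and of cytochrome c were described in the uterus of pseudopregnant mice, as measured on 8 expression arrays. The members were all genes whose symbol in the platform annotation is Cycs or belongs to the Sdh, Uqcr, Cox4 to Cox8 or Atp5 families. This gave 48 of the 19505 genes with a symbol: 1 for cytochrome c, 4 for complex II, 8 for complex III, 18 for complex IV and 17 for complex V. Each was read by a single probe set, and 46 of the 48 had a mean above the 25th percentile of all 22206 probe sets.

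The ecig group comprised 4 wild-type C57BL/6J females exposed for 3 hours daily to nicotine aerosol (24 mg/mL in a mix of vegetable glycerin and propylene glycol), given as 2 puffs each minute. Exposure ran for 4 weeks of 5 days before mating to vasectomised males and then daily until the uterus was taken on the morning of day 4.5. The sham group comprised 4 wild-type C57BL/6J females mated in the same way that breathed room air. No age of the mice is stated in the sources used here. Each array held the uterus of 1 mouse, and precision is limited by their number. No embryo was present, and the exposed mice received nicotine and carrier liquids together, so these cannot be told apart. The comparison addresses how the uterus at the time of implantation differs after such exposure.

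All values are log2 expression, group values are means ± SD over 4 mice, and differences are ecig minus sham. The labelled tissue carried its defining transcripts: over the 8 arrays Hoxa10 lay between 10.87 and 11.36, Pgr between 10.29 and 11.34 and Esr1 between 9.72 and 10.32. Ecig mice 4 and 2 correlated least with the other arrays (mean r of 0.977 and 0.982, against 0.986 to 0.987 for the other 6 mice). Values without both mice are therefore also given for the members and lists described most fully. These 2 mice were also the lowest pair in 32 of 48 members, so leaving them out raises most differences and is no test. Array weights from limma were lowest for ecig mice 4, 1 and 2 (0.491, 0.721 and 0.787), so they did not single out this pair.

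The respiratory chain lies in the inner mitochondrial membrane. Complex II passes electrons from succinate to ubiquinone, complex III passes them to cytochrome c, and complex IV passes them from cytochrome c to oxygen. Complex V, the ATP synthase, uses the proton gradient built by complexes I, III and IV to make ATP. In the uterus, muscle contraction, epithelial secretion and growth of the stroma all draw on this ATP. Several genes of complex IV exist as paired isoforms, one made in most tissues and the other mainly in muscle, lung or testis.

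The means of most members were slightly lower in ecig uteri, and no single member passed the test over the whole array. In detail, 40 of 48 members had a lower mean in ecig mice, against 49.5% of all probe sets, and their median difference was -0.15, against 0.00141 over all probe sets. Complex V stood lower in 17 of 17 members, complex II in 4 of 4, complex III in 6 of 8, the widely made subunits of complex IV in 10 of 10 and the tissue-restricted isoforms of complex IV in 2 of 7. With limma, 0 of 48 members passed a Benjamini-Hochberg adjusted p of 0.05, against 0% of all probe sets, with an adjusted p of 0.838 or more for every member. At an unadjusted p under 0.05, limma gave 1 member as lower (Cycs), or 2.08% of the members, against 2.5% of all probe sets. It gave 1 as higher (Cox8b), against 2.91% of all probe sets. These shares are near the background, so they are no result about the members. The groups did not overlap for 1 lower member (Uqcrb), against 1.35% of all probe sets, and for 1 higher member (Cox8b), against 1.38%. Differences were small, and 34 of 48 were under 0.2 in size. The members' genes share a pathway and the same 8 mice, so they are not replicates of the comparison. Without ecig mice 2 and 4, 17 of 48 members had a lower mean in ecig mice, against 51.9% of all probe sets, and the median difference was 0.02.

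**Figure D1:**
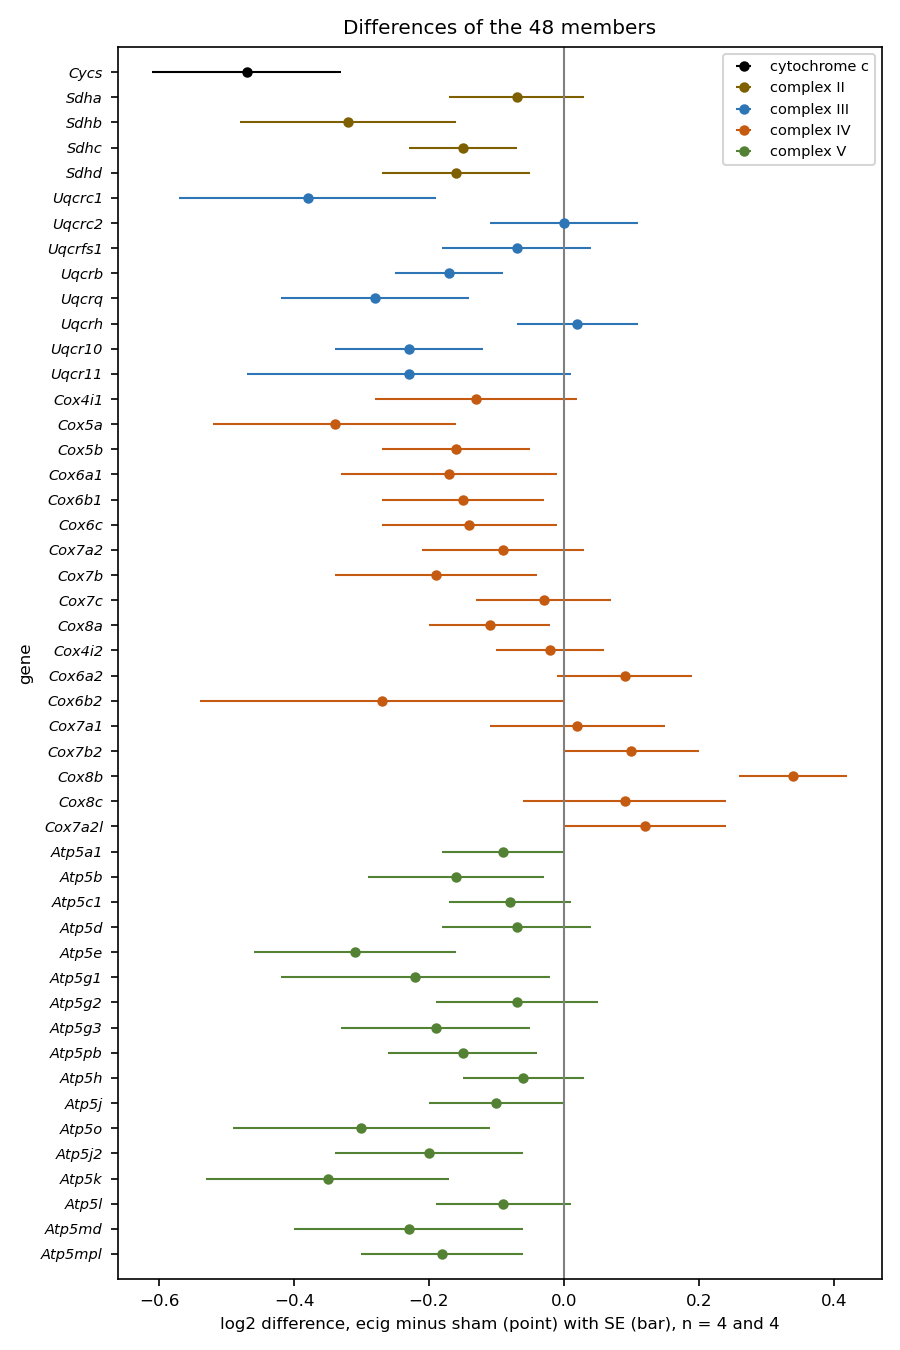
Log2 difference (ecig minus sham, horizontal axis) of each of the 48 members (vertical axis, coloured by complex), with its standard error as a bar, from 4 ecig and 4 sham mice. Most points lie left of 0, with Cycs at -0.47 farthest to the left and Cox8b at 0.34 farthest to the right.

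In mammals, nuclear respiratory genes are known to be driven in part by nuclear respiratory factor 1 (NRF1) and ETS family factors such as GABP. Promoters are therefore shown, and the part of these factors in the lower means of the members was not tested. RefSeq promoters of build GRCm38.p6 were matched for 37 of the 48 members. The 250 bases before the gene's start were searched on both strands for GCATGCGC (NRF1 core), CCGGAAG (ETS core) and AAGATGGC (YY1 core), none of which contains another. The NRF1 core was found in 6 of 37 members (16.2%): Cycs, Sdhb, Cox6a1, Atp5g2, Atp5k and Atp5l. Counted by promoter, this was 15.0% of the members' 40 promoters, against 2.26% of all 32851 promoters. The ETS core was found in 9 of 37 members (24.3%), or 22.5% of their promoters, against 6.91% of all promoters. The YY1 core was found in 1 of 37 (2.7%), or 2.5% of the members' promoters, against 1.56%. A match is a description of the letters and no sign of binding. No promoters matched for expression level or base content were searched, so a higher share is not shown to be particular to the members. The sequences are those of Cycs and of the member of smallest p in each complex among those with a promoter in the table. They are printed 5′ to 3′ and end at the base before the start, with searched motifs in capitals:
Cycs, chr6:50566570-50566819, strand minus: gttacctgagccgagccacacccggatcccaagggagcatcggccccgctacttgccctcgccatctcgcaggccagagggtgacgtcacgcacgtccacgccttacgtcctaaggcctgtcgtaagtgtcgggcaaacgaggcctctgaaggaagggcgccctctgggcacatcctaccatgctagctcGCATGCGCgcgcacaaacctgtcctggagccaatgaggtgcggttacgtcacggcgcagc
Sdhb, chr4:140961021-140961270, strand plus: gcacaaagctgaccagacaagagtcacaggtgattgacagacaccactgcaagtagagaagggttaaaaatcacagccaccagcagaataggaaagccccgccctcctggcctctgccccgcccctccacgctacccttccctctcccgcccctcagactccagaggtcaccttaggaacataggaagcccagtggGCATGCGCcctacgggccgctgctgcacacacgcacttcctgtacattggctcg
Uqcr10, chr11:4704345-4704594, strand minus: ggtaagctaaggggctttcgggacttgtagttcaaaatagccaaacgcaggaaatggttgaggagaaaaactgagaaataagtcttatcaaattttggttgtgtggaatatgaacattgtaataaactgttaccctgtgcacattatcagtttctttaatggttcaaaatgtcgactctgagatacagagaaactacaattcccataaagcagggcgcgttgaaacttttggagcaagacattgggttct
Cox8b, chr7:140900447-140900696, strand minus: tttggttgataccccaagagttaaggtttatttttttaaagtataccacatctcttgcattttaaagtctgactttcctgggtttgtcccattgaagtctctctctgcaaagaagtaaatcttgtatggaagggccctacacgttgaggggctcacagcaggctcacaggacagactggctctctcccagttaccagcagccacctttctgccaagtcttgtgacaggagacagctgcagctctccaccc
Atp5e, chr2:174464102-174464351, strand minus: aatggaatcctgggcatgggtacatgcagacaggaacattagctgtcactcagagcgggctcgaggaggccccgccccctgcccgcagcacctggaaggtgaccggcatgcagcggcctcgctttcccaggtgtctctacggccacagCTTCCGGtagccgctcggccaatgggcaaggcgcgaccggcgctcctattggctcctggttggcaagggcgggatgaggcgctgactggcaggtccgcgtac
The NRF1 core begins 60 bases before the start in Cycs and 54 bases before it in Sdhb, and the ETS core, read on the other strand, begins 102 bases before it in Atp5e. In these windows of Uqcr10 and Cox8b the letters of the 3 motifs were not found.

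Cytochrome c, the small haem protein that carries electrons between complexes III and IV and also acts in the onset of apoptosis, had the largest difference in size of the members. Cycs was 10.18, 9.64, 9.97 and 9.68 in ecig mice 1 to 4, against 10.37, 10.56, 10.27 and 10.17 in sham mice 1 to 4. Ecig mice 2, 3 and 4 lay below every sham mouse, while ecig mouse 1 lay just above sham mouse 4. The mean was 9.87 ± 0.25 in ecig and 10.34 ± 0.16 in sham mice, a 1.39-fold lower mean (difference -0.47 ± 0.14 SE, limma adjusted p = 0.838). Leaving out any 1 mouse kept the difference between -0.579 and -0.400, and without ecig mice 2 and 4 it was -0.269. Mouse Cycs is known to have processed pseudogenes, as are many members, and signal from such copies on an array cannot be told apart from that of the gene.

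**Figure D2:**
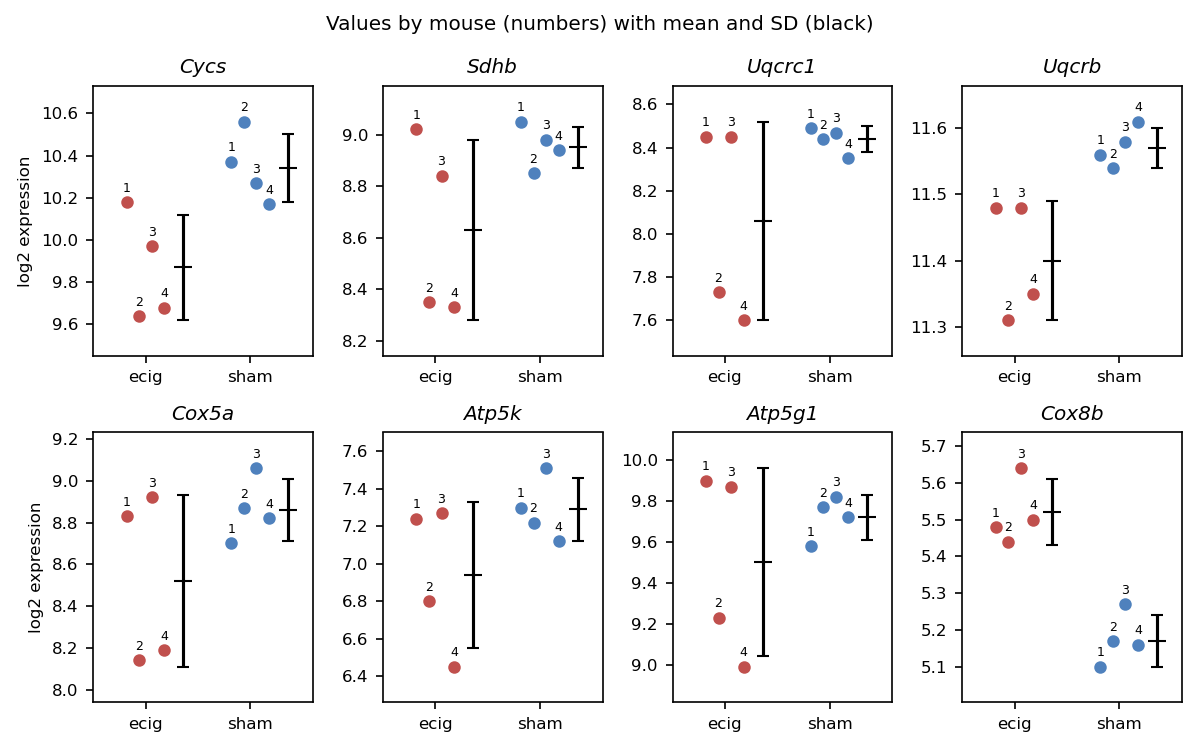
Log2 expression (vertical axes, own scale for each gene) of 8 members in the 4 ecig mice (red) and the 4 sham mice (blue), with mouse numbers beside the points and group mean ± SD in black. Ecig mice 2 and 4 lie low in 7 of the panels, and Cox8b is the panel in which all ecig mice lie above all sham mice.

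Complex II, succinate dehydrogenase, is shared by the respiratory chain and the citric acid cycle. Its iron-sulfur subunit Sdhb was 9.02, 8.35, 8.84 and 8.33 in ecig mice 1 to 4, against 9.05, 8.85, 8.98 and 8.94 in sham mice 1 to 4. Ecig mice 2 and 4 were clearly lowest, ecig mouse 3 lay just under the sham range, and ecig mouse 1 lay within it. The difference was -0.32 ± 0.16 (SE), 1.25-fold lower (limma adjusted p = 0.838). Without ecig mice 2 and 4 it was -0.0271. The flavoprotein Sdha, which oxidises succinate, was 8.23, 7.86, 8.04 and 7.94 in ecig mice against 8.09, 7.97, 8.08 and 8.19 in sham mice, and the groups overlapped. Sdhc, a membrane anchor, was 8.59, 8.46, 8.66 and 8.47 in ecig mice against 8.75, 8.65, 8.71 and 8.68 in sham mice. For Sdhc, ecig mouse 3 lay just above the lowest sham mouse and the other exposed mice lay below all sham mice. The second anchor, Sdhd, was 9.21, 8.96, 9.20 and 8.91 in ecig mice against 9.07, 9.27, 9.34 and 9.25 in sham mice. Leaving out ecig mice 2 and 4, the difference was -0.0686 for Sdhc, -0.0265 for Sdhd and 0.0537 for Sdha. The 95% intervals of the difference were -0.29 to 0.16 for Sdha, -0.67 to 0.03 for Sdhb, -0.34 to 0.04 for Sdhc and -0.40 to 0.07 for Sdhd.

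Complex III, the cytochrome bc1 complex, had a median difference of -0.20 over its 8 measured genes, and of -0.00595 without ecig mice 2 and 4. Uqcrc1, core protein of the matrix arm, was 8.45, 7.73, 8.45 and 7.60 in ecig mice 1 to 4, against 8.49, 8.44, 8.47 and 8.35 in sham mice 1 to 4. Ecig mice 1 and 3 lay inside the narrow sham range and ecig mice 2 and 4 lay far below it. The mean was 8.06 ± 0.46 in ecig and 8.44 ± 0.06 in sham mice (difference -0.38 ± 0.19 SE, 1.30-fold lower, limma adjusted p = 0.838), and without ecig mice 2 and 4 the difference was 0.0122. The partner core protein Uqcrc2, named after its values were seen, had a mean of 8.66 ± 0.15 in ecig and 8.66 ± 0.13 in sham mice (95% interval of the difference -0.24 to 0.24). The Rieske iron-sulfur protein Uqcrfs1, also named after its values were seen, had a mean of 8.50 ± 0.18 in ecig and 8.58 ± 0.09 in sham mice.

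Among the small subunits of complex III, Uqcrb, which takes part in ubiquinone binding, was 11.48, 11.31, 11.48 and 11.35 in ecig mice against 11.56, 11.54, 11.58 and 11.61 in sham mice. Every exposed mouse lay below every sham mouse, with the nearest values at 11.48 and 11.54. The difference was -0.17 ± 0.08 (SE), 1.13-fold lower (limma adjusted p = 0.838), and -0.0952 without ecig mice 2 and 4. Uqcrq, a small subunit beside cytochrome b, was 8.36, 8.04, 8.45 and 7.88 in ecig mice against 8.35, 8.44, 8.71 and 8.33 in sham mice. Uqcr10, also a small membrane subunit, was 8.79, 8.49, 8.91 and 8.67 in ecig mice against 8.86, 8.85, 9.12 and 8.94 in sham mice. For both genes, the same exposed mice 2 and 4 were the lowest of the 8. The differences were -0.28 ± 0.14 (SE) for Uqcrq and -0.23 ± 0.11 for Uqcr10, or -0.0541 and -0.0917 without ecig mice 2 and 4. Uqcrh, the hinge protein that docks cytochrome c, went the other way by a small margin, with 10.33, 10.54, 10.57 and 10.47 in ecig mice against 10.40, 10.40, 10.62 and 10.39 in sham mice. Its difference of 0.02 ± 0.09 (SE) was -0.00663 without ecig mouse 3, so its direction is not settled.

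Complex IV, cytochrome c oxidase, is built around 3 subunits of the mitochondrial genome, which are not analysed here, with small nuclear subunits around them. The 10 widely made subunits had a median difference of -0.14 and ranged from -0.34 to -0.03. Cox5a, a matrix-side subunit, was 8.83, 8.14, 8.92 and 8.19 in ecig mice 1 to 4, against 8.70, 8.87, 9.06 and 8.82 in sham mice 1 to 4. Ecig mice 1 and 3 lay within the sham range and the other exposed mice far below it. The difference was -0.34 ± 0.18 (SE), 1.27-fold lower (limma adjusted p = 0.838), and 0.0098 without ecig mice 2 and 4. Cox5b, which binds zinc on the matrix side, was 10.03, 9.72, 10.08 and 9.71 in ecig mice against 10.05, 9.93, 10.17 and 10.02 in sham mice. Cox6b1, on the outer face where cytochrome c docks, was 9.41, 9.09, 9.50 and 9.03 in ecig mice against 9.31, 9.41, 9.52 and 9.37 in sham mice. In both, mice 2 and 4 of the exposed group were the lowest of the 8 and the remaining exposed mice lay within the sham range, and without mice 2 and 4 the differences were 0.0117 for Cox5b and 0.0491 for Cox6b1. Cox7c, the member of complex IV with the highest mean, was 12.31, 12.19, 12.33 and 12.06 in ecig mice against 12.15, 12.20, 12.24 and 12.42 in sham mice, with overlapping groups. Its difference of -0.03 ± 0.10 (SE) turned to 0.0206 without ecig mouse 4 and to 0.025 without sham mouse 4.

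The 7 tissue-restricted isoforms of complex IV had a median difference of 0.09, and 5 of them had a higher mean in ecig mice. Cox8b, the isoform of heart, skeletal muscle and brown fat in mice, was 5.48, 5.44, 5.64 and 5.50 in ecig mice, against 5.10, 5.17, 5.27 and 5.16 in sham mice. All exposed mice lay above all sham mice, ecig mice 2 and 4 included. The mean was 5.52 ± 0.09 in ecig and 5.17 ± 0.07 in sham mice (difference 0.34 ± 0.08 SE, 1.27-fold higher, limma adjusted p = 0.838), and it stayed between 0.301 and 0.375 when any 1 mouse was left out. Cox8b was 1 of the 2 members whose mean lay below the 25th percentile of all probe sets, so it was dim on these arrays. The brown fat markers beside it, with Cox8b taken out of the list, had a higher mean in 4 of 6 and a median difference of 0.05. Their mean level ran from 5.93 to 6.37 in ecig and from 5.81 to 6.49 in sham mice. Ucp1, the uncoupling protein that defines brown fat, was 4.13 ± 0.15 in ecig and 4.08 ± 0.17 in sham mice. Skeletal and heart muscle markers had a lower mean in 6 of 10 (list level 6.44 to 6.71 in ecig and 6.69 to 6.84 in sham mice). The part of either cell type in the Cox8b difference was not tested.

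The remaining isoforms overlapped between groups. Cox6a2 and Cox7a1, the other muscle isoforms, differed by 0.09 ± 0.10 (SE) and 0.02 ± 0.13. Cox7a1 was 5.87, 5.98, 5.96 and 6.34 in ecig mice against 6.26, 5.87, 5.90 and 6.04 in sham mice, and its difference was -0.0796 without ecig mouse 4, -0.0265 without sham mouse 2 and -0.0173 without sham mouse 3. Cox4i2, the lung-enriched isoform that takes part in oxygen sensing, differed by -0.02 ± 0.08 (SE), and by 0.00085 without ecig mouse 4. Of the testis isoforms, Cox7b2 was dim (4.01 ± 0.15 in ecig and 3.91 ± 0.08 in sham mice) and Cox8c differed by 0.09 ± 0.15 (SE), or by -0.0332 without ecig mouse 4. Cox6b2 was 7.68, 6.44, 7.53 and 6.61 in ecig mice against 7.66, 7.31, 7.34 and 7.03 in sham mice. It had the widest spread of the members in the exposed group (SD 0.63), and like the widely made subunits it was lowest in ecig mice 2 and 4 (difference -0.27 ± 0.27 SE, and 0.271 without them). Cox7a2l, a factor that joins complexes III and IV into supercomplexes and is shortened in C57BL/6J mice, was named after its values were seen. It was 9.68, 10.25, 9.96 and 9.91 in ecig mice against 9.86, 9.87, 9.81 and 9.80 in sham mice, so ecig mouse 2, low for most members, was the highest of the 8 here.

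Complex V had a lower mean in ecig mice for each of its 17 measured genes, with a median difference of -0.16 and a range from -0.35 to -0.06. This median was -0.0737 without ecig mouse 4 and turned to 0.0388 without ecig mice 2 and 4. By part of the enzyme, the median difference was -0.09 for the 5 subunits of the catalytic F1 head and its stalk, -0.19 for the 3 genes of the c ring, -0.13 for the 4 of the peripheral stalk and -0.20 for the 5 small membrane subunits. In the F1 part, the epsilon subunit Atp5e was 7.25, 7.30, 7.55 and 6.73 in ecig mice 1 to 4, against 7.58, 7.55, 7.48 and 7.43 in sham mice 1 to 4. Here ecig mouse 4 lay far below the rest, and ecig mouse 3 within the sham range. The difference was -0.31 ± 0.15 (SE), 1.24-fold lower (limma adjusted p = 0.838), and -0.146 without ecig mouse 4. Atp5a1, the alpha subunit and the member of complex V with the highest mean, was 11.50, 11.37, 11.55 and 11.33 in ecig mice against 11.49, 11.49, 11.56 and 11.58 in sham mice, with a difference of -0.09 ± 0.09 (SE).

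The c ring turns as protons pass, and its subunit is encoded by Atp5g1, Atp5g2 and Atp5g3, which are known to yield the same mature protein from different precursors. Atp5g1 was 9.90, 9.23, 9.87 and 8.99 in ecig mice against 9.58, 9.77, 9.82 and 9.72 in sham mice. Its exposed mice lay on both sides of the sham range, with mice 1 and 3 above every sham mouse and mice 2 and 4 below every one. Atp5g3 was 9.68, 9.24, 9.74 and 9.14 in ecig mice against 9.52, 9.66, 9.77 and 9.62 in sham mice. Atp5g2 was 10.95, 10.92, 11.25 and 10.77 in ecig mice against 11.09, 10.86, 11.13 and 11.11 in sham mice. The differences were -0.22 ± 0.20 (SE) for Atp5g1, -0.07 ± 0.12 for Atp5g2 and -0.19 ± 0.14 for Atp5g3, and each was above 0 without ecig mice 2 and 4 (0.162, 0.0562 and 0.0689).

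In the peripheral stalk, which holds the F1 head still, Atp5o (subunit OSCP) was 9.48, 8.85, 9.56 and 8.64 in ecig mice against 9.33, 9.45, 9.50 and 9.43 in sham mice. As with Atp5g1, ecig mouse 3 lay above and ecig mice 2 and 4 well below the sham range. The difference was -0.30 ± 0.19 (SE), and 0.0887 without ecig mice 2 and 4. Atp5h, subunit d of the stalk, had the smallest difference of complex V (-0.06 ± 0.09 SE, with means of 11.42 ± 0.13 in ecig and 11.48 ± 0.02 in sham mice). Among the membrane subunits, which take part in pairing the enzyme into dimers, Atp5k (subunit e) was 7.24, 6.80, 7.27 and 6.45 in ecig mice against 7.30, 7.22, 7.51 and 7.12 in sham mice. Its difference was -0.35 ± 0.18 (SE), 1.27-fold lower (limma adjusted p = 0.838), and -0.0329 without ecig mice 2 and 4. Atp5mpl, a small proteolipid of the enzyme, was 10.16, 9.81, 10.25 and 9.81 in ecig mice against 10.17, 10.15, 10.26 and 10.16 in sham mice. Its exposed mice 1 and 3 lay within the sham range and its exposed mice 2 and 4 below it, and the difference of -0.18 ± 0.12 (SE) was 0.0209 without them.

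The lowest values lay mostly in the same 2 exposed mice across complexes. Ecig mouse 4 was the lowest of the 8 mice in 29 of 48 members (against 20.2% of all probe sets) and ecig mouse 2 in 12 of 48 (against 13.2%). Together they were the lowest pair in 32 of 48 members, against 11.6% of all probe sets. Ecig mouse 4 lay below all sham mice in 38 of 48 members (against 28.2% of all probe sets) and ecig mouse 2 in 36 (against 25.2%). Ecig mouse 1 did so in 9 (against 21.8%) and ecig mouse 3 in 4 (against 21.2%). Ecig mice 1 and 3 lay within the sham range in 31 and 32 members, against 58.8% and 59.3% of all probe sets. Averaged over the 48 members and set against the sham mean, ecig mice 1 to 4 stood at 0.005, -0.280, 0.052 and -0.309, against -0.002, -0.023, 0.056 and -0.031 for sham mice 1 to 4. Complex V gave 0.013, -0.318, 0.060 and -0.424 in ecig mice, with sham mice between -0.032 and 0.070. Complex III gave -0.018, -0.345, 0.036 and -0.340, with sham mice between -0.103 and 0.064. Complex II gave 0.022, -0.333, -0.057 and -0.329, with sham mice between -0.059 and 0.036. The widely made subunits of complex IV gave 0.013, -0.325, 0.092 and -0.382, with sham mice between -0.045 and 0.103. The restricted isoforms did not share this order, with 0.036, -0.058, 0.107 and 0.121 in ecig mice and -0.041 to 0.046 in sham mice. In bulk uterine RNA, fewer cells rich in mitochondria and less of these transcripts per cell cannot be told apart.

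**Figure D3:**
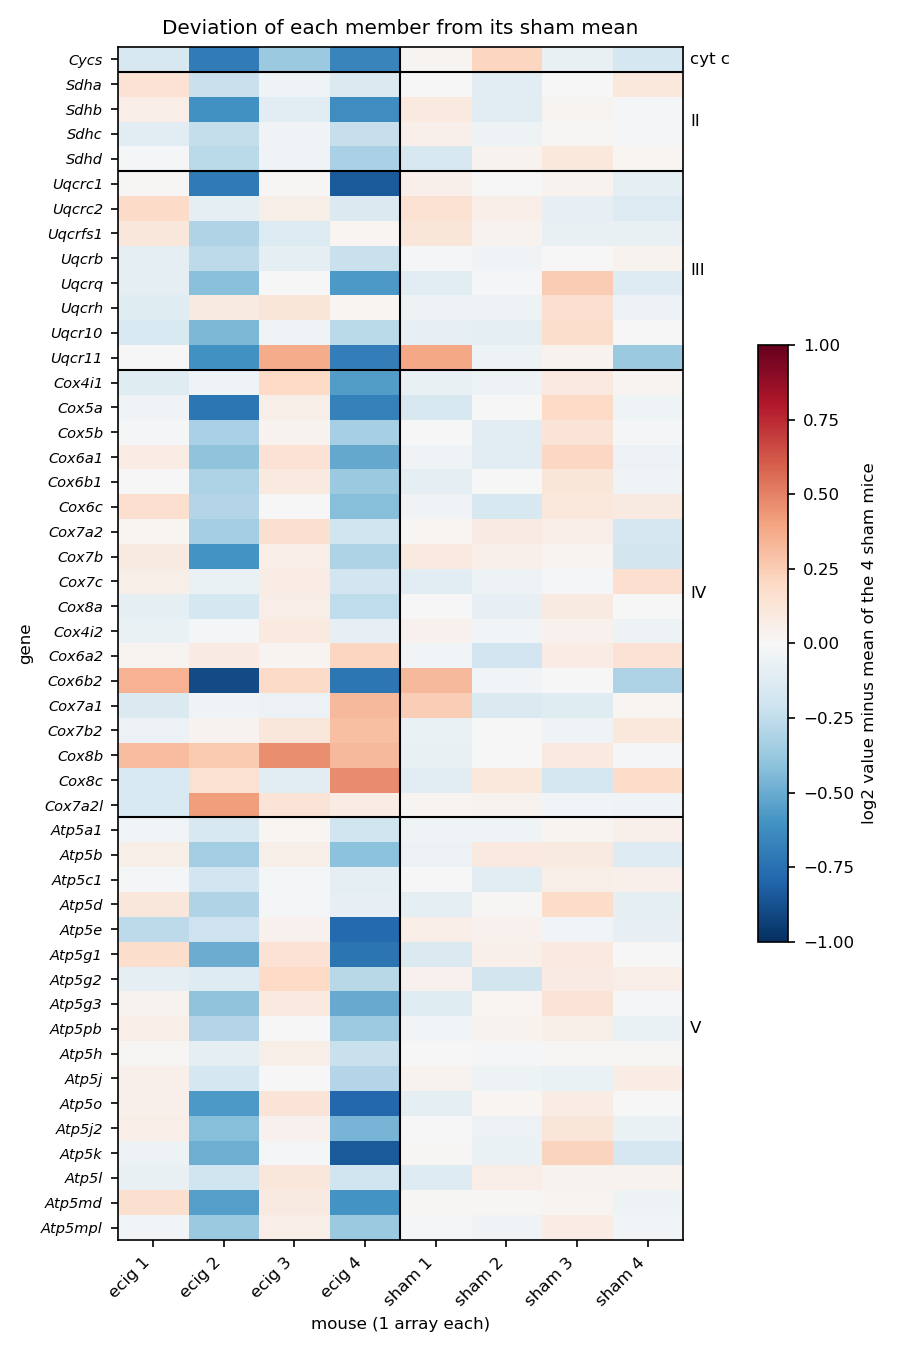
Heat map of the 48 members (rows, grouped by complex) in the 4 ecig and the 4 sham mice (columns), coloured by log2 value minus that gene's mean over the sham mice. The blue columns are ecig mice 2 and 4, with a mean over the members of -0.280 and -0.309, against 0.005 and 0.052 for ecig mice 1 and 3.

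The exposed mice varied more among themselves, and ecig mice 2 and 4 were the lowest pair in 32 of 48 members. This spread and the low values of those mice are therefore not separate observations. No spread without them is given here. The SD over the 4 ecig mice exceeded that over the 4 sham mice in 46 of 48 members, against 65.8% of all probe sets. The median SD of the members was 0.22 in ecig and 0.10 in sham mice, against 0.18 in ecig and 0.13 in sham mice over all probe sets.

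**Figure D4:**
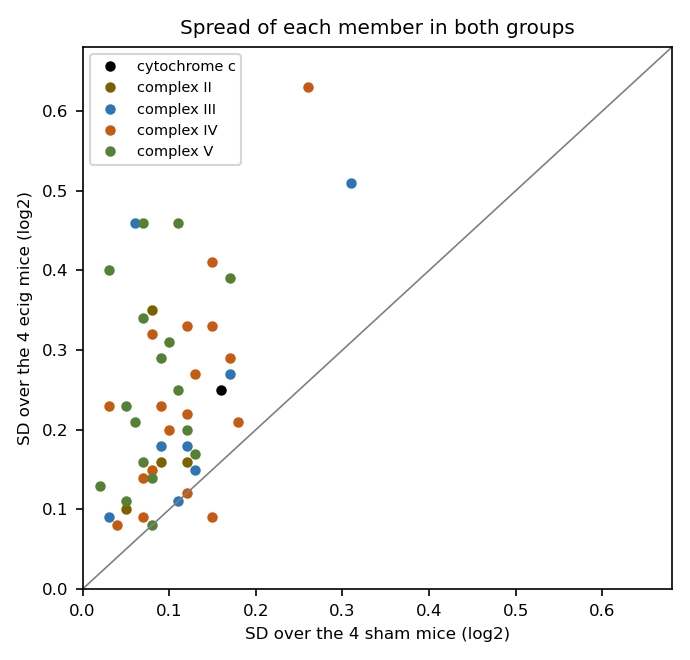
SD over the 4 ecig mice (vertical axis) against SD over the 4 sham mice (horizontal axis), log2 units, for each of the 48 members, coloured by complex, with a line where both are equal. In 46 members the unrounded ecig SD is the larger, and Cox6b2 lies highest at 0.63.

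Other mitochondrial genes were read from lists chosen with earlier results of these data known. In each of these lists 0 genes passed limma's adjusted p of 0.05. At an unadjusted p under 0.05, limma gave as lower 3 of 36 genes of the complex I list and 2 of 16 of import and carriers (against 2.5% of all probe sets). It gave 1 of 11 regulators as higher (against 2.91%) and 0 in the other mitochondrial lists. The list for complex I, which feeds electrons from NADH into the chain, had lower means in 31 of 36 genes, with a median difference of -0.16. It holds genes with Nduf symbols and counts Ndufa4 among them. Without ecig mice 2 and 4, a choice made after seeing the data for this and the other lists, 12 of 36 were lower and the median was 0.0424. Its mice ran alike, at 0.02, -0.29, 0.06 and -0.41 for ecig mice 1 to 4 and -0.072 to 0.061 for sham mice. Ndufa1 and Ndufs6, its subunits of smallest p, were 7.30 ± 0.50 and 8.93 ± 0.28 in ecig and 7.85 ± 0.15 and 9.24 ± 0.06 in sham mice, with differences of -0.124 and -0.0925 without ecig mice 2 and 4. Protein import and carriers of the inner membrane were lower in 14 of 16 genes (median difference -0.17), and in 13 of 16 without ecig mice 2 and 4 (-0.0504). Timm23, the channel of the inner-membrane translocase, was 9.28, 8.85, 9.07 and 8.65 in ecig mice against 9.29, 9.41, 9.38 and 9.34 in sham mice, each exposed mouse below each sham mouse (difference -0.39 ± 0.13 SE, limma adjusted p = 0.838, and -0.177 without ecig mice 2 and 4). The chaperonin Hspd1 was 9.84 ± 0.40 in ecig and 10.32 ± 0.11 in sham mice, a difference of -0.47, or -0.138 without ecig mice 2 and 4. Enzymes of the citric acid cycle were lower in 9 of 12 genes (median difference -0.10), among them citrate synthase Cs (9.55 ± 0.35 in ecig and 9.82 ± 0.07 in sham mice) and malate dehydrogenase Mdh2 (9.51 ± 0.41 in ecig and 9.80 ± 0.06 in sham mice). Without ecig mice 2 and 4, 5 of 12 were lower with a median of 0.0186, and the differences were 0.0273 for Cs and 0.0602 for Mdh2.

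Assembly factors showed medians smaller in size than those of their own complexes (-0.16, -0.20, -0.10 and -0.16 for complexes II, III, IV and V). Those of complexes II and III were lower in 7 of 10 genes (median difference -0.07), those of complex IV in 11 of 18 (-0.08) and those of complex V in 3 of 4 (-0.13). These counts without ecig mice 2 and 4 were 4 of 10 (0.0683), 10 of 18 (-0.0202) and 2 of 4 (0.00975). Taco1, which activates translation of a mitochondrial subunit of complex IV, was 7.43 ± 0.39 in ecig and 7.78 ± 0.05 in sham mice, and Cox18, which inserts another such subunit into the membrane, was 8.40 ± 0.28 in ecig and 8.66 ± 0.08 in sham mice. Uqcc2, an assembly factor of complex III, was 7.94 ± 0.42 in ecig and 8.25 ± 0.11 in sham mice, while Lyrm7, which handles the Rieske protein, was 7.93 ± 0.11 in ecig and 7.81 ± 0.06 in sham mice. For complex V, Tmem70 was 6.79 ± 0.19 in ecig and 6.95 ± 0.07 in sham mice, and Atpaf2 was 5.43 ± 0.31 in ecig and 5.62 ± 0.31 in sham mice. Genes of inner membrane shape and fusion were lower in 7 of 9 with a median difference of -0.01, and in 2 of 9 without ecig mice 2 and 4 (0.0376). Of these, Chchd6 was 7.48 ± 0.14 in ecig and 7.71 ± 0.14 in sham mice, and Mfn1 was 9.31 ± 0.16 in ecig and 9.19 ± 0.13 in sham mice. Transcriptional regulators of mitochondrial genes were split, 6 lower and 5 higher, with a median difference of -0.02, and 8 of 11 were lower without ecig mice 2 and 4 (-0.0345). Tfb1m, a mitochondrial rRNA methyltransferase, was 7.58 ± 0.10 in ecig and 7.25 ± 0.32 in sham mice. Pprc1, a coactivator of NRF1, was 6.15 ± 0.43 in ecig and 6.47 ± 0.23 in sham mice. Nrf1 itself, Gabpa and Gabpb1 were named after their values were seen. In ecig mice they were 8.31 ± 0.20, 10.02 ± 0.10 and 8.21 ± 0.17. In sham mice they were 8.37 ± 0.08, 9.95 ± 0.09 and 8.23 ± 0.19. The coactivator Ppargc1a, named after its values were seen, was 7.76, 8.96, 7.51 and 8.18 in ecig mice against 7.34, 7.27, 7.55 and 8.66 in sham mice, and so was highest in ecig mouse 2, where most members were low.

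**Figure D5:**
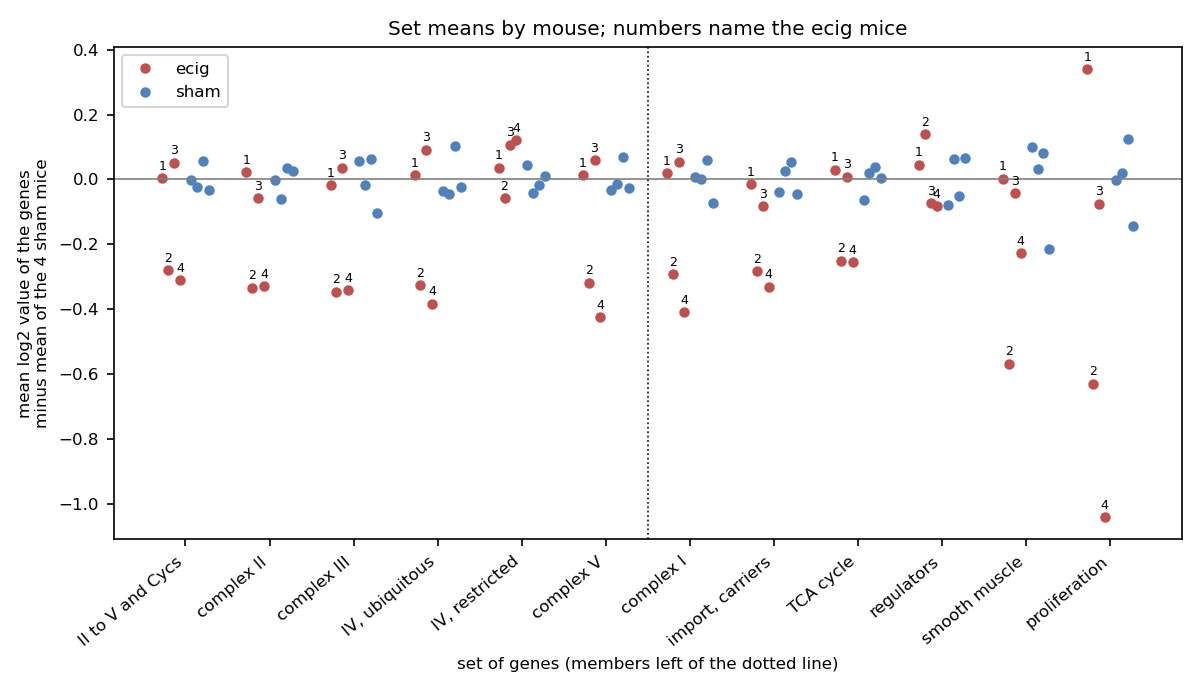
Mean log2 value of each set of genes minus its mean over the sham mice (vertical axis), for the 4 ecig mice (red, numbered) and the 4 sham mice (blue), with the members' sets left of the dotted line. Ecig mice 2 and 4 lie lowest in most sets but do not both do so in the restricted isoforms of complex IV or in the regulators.

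Lists for other processes and cell types gave the following values in the same mice. Proliferation genes had lower means in 12 of 12 (median difference -0.36), at 0.34, -0.63, -0.07 and -1.04 for ecig mice 1 to 4 and -0.14 to 0.13 for sham mice. When ecig mice 2 and 4 were left out, 2 of 12 were lower and the median was 0.0933. E2f1 and Ccne1, both of S-phase entry, were 5.57 ± 0.57 and 7.15 ± 0.34 in ecig and 6.01 ± 0.24 and 7.44 ± 0.09 in sham mice. Smooth muscle markers were lower in 10 of 10 (median difference -0.17), and in 7 of 10 without ecig mice 2 and 4 (-0.0532). Their mean level stood at 0.003, -0.567, -0.043 and -0.226 in ecig mice 1 to 4 relative to the sham mean, with a list level of 10.37 to 10.94 in ecig and 10.72 to 11.04 in sham mice.

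Values of the cell type lists in ecig mice 2 and 4 differed from list to list, and some lay within the sham range. Relative to the sham mean, sham mice ran from -0.45 to 0.358 for gland and -0.198 to 0.311 for luminal epithelium markers. They ran from -0.205 to 0.218 for macrophage, -0.029 to 0.027 for stroma and -0.328 to 0.265 for endothelium markers. Ecig mouse 1 stood at -0.437 for gland markers and ecig mouse 3 at 0.304 for endothelium markers. Gland markers, lower in 3 of 6, stood at 2.283 above the sham mean in ecig mouse 4 and at -0.496 in ecig mouse 2 (list level 6.89 to 9.67 in ecig and 6.94 to 7.75 in sham mice). In ecig mouse 4 the gland mean rested on Prss28 (12.64), Prss29 (12.04) and Spink1 (12.22), with sham means of 5.23, 7.1 and 7.69. There Foxa2 (7.16) and Cxcl15 (6.51) were the lowest of the 8 mice, and Lif (7.47) lay within the sham range. Luminal epithelium markers, lower in 4 of 7, stood at -0.533 in ecig mouse 4 and 0.046 in ecig mouse 2 (8.39 to 8.97 in ecig and 8.73 to 9.24 in sham mice). Macrophage markers, lower in 4 of 5, stood at 0.029 in ecig mouse 4 and -0.764 in ecig mouse 2 (7.23 to 8.26 in ecig and 7.79 to 8.22 in sham mice). Stroma markers, lower in 3 of 7, stood at -0.029 in ecig mouse 4 and -0.314 in ecig mouse 2 (10.36 to 10.71 in ecig and 10.65 to 10.70 in sham mice). Endothelium markers, lower in 0 of 6, stood at 0.319 in ecig mouse 4 and 0.038 in ecig mouse 2 (9.01 to 9.29 in ecig and 8.64 to 9.24 in sham mice). Testis markers were lower in 3 of 6 (5.26 to 5.47 in ecig and 5.24 to 5.44 in sham mice). Adipocyte markers were lower in 1 of 7 and highest in ecig mice 1 and 2, at 1.30 and 1.54 above the sham mean. The part of these cell types and of proliferation in the lower means of the members was not tested.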

How the data were processed

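RNA of the uterus from 8 mice was labelled with biotin and hybridised to Affymetrix arrays, per the labels' protocols. A single table was deposited by the authors, with a log2 value for each of 22206 probe sets and each mouse. That these values are log2 is read from their range, 2.75 to 13.6. The software was Partek, per the submitters' processing notes, with version, background correction and summarisation not stated there. The sorted columns differ by at most 0.0198, so the arrays had been brought to 1 distribution and were used as deposited, and a shift common to all genes cannot be seen.

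Symbols came from the platform annotation, and gene names of the related lists were also matched through the RefSeq gene table of GRCm38.p6. The test was lmFit with eBayes (limma 3.58.1, R 4.3.3) over both groups and every probe set, with no covariate, Benjamini-Hochberg adjusted over the whole table at a threshold of 0.05. The fit was checked on simulated arrays. Lists are described by counts and medians, with no test. Folds are 2 to the power of a difference's size. The members and lists were chosen with earlier results of these data known. Named were Cycs, complex II, and in each other complex the 4 members of smallest p, that of highest mean and that most opposed to the complex's median, with restricted isoforms, c ring genes and 2 genes of smallest p per related list. Alternatives were median centring or quantile normalization, a low-value filter at percentile 25 or 50, other variance moderation, array weights, a replicate block, other summaries and leaving out mice. The labels number the replicates but state no pairing, so the fit reported did not pair the mice. The 13 genes of the mitochondrial genome are not analysed here.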

Additional observations from a re-analysis of the deposited data

Results flagged for a closer look

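Within the 106 groups of 4 mice tested (each member and each complex mean, in each exposure group), 2 held a mouse that stood apart by Dixon's criterion, where chance gives about 1 in 20. Uqcrh was 10.62 in sham mouse 3, with the other sham mice at 10.39 to 10.40. Atp5g2 was 10.86 in sham mouse 2, with the other sham mice at 11.09 to 11.13.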

How the results depend on the processing

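In every one of the 19 alternative fits, 0 members passed limma's adjusted p of 0.05 (smallest 0.248, for Cycs without ecig mouse 1; over all alternatives its adjusted p ran from 0.248 to 1.0). Quantile normalization and median centring moved no value printed here by more than 0.01. They could move little, as the deposited arrays already shared 1 distribution. Averaging a gene's probe sets could not change a member's values, as each member was read by a single probe set. The 40 members with lower means numbered 38 to 42 when any 1 mouse was left out, and 17 without ecig mice 2 and 4 together. Without both of these mice, the median difference was 0.0245 for all members. It was -0.0268 for complex II, -0.00595 for complex III, 0.0341 for complex IV and 0.0388 for complex V. Those mice were the lowest pair in 32 of 48 members, so a rise of the medians follows from the choice. No other pair was left out. Over the fits without 1 mouse these medians ran from -0.198 to -0.0735 for all members, -0.196 to -0.116 for II, -0.243 to -0.123 for III, -0.173 to -0.0362 for IV and -0.229 to -0.0737 for V.

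At an unadjusted p under 0.05, limma gave 1 lower member in the fit reported (2.08% of members, against 2.5% of all probe sets). With an intensity trend, with or without robust estimation, limma gave 2 (4.17%, against 2.63%), as with the 50th percentile filter (4.76%, against 3.48%). Without moderation limma gave 3 (6.25%, against 2.28%) and with the replicate block 6 (12.5%, against 2.72%). It gave 1 to 10 when 1 mouse was left out: 5 without ecig mouse 1 (10.4% of members, 6.03% of all), 10 without ecig mouse 3 (20.8%, 3.4%) and 1 without any other mouse. It gave 0 without ecig mice 2 and 4 (1.96%). The higher member, Cox8b, dropped out (0 left, also of those whose groups do not overlap) under both filters and among members above the median, since it is dim. Fewer mice leave more probe sets without overlap: lower members numbered 1 to 5 without 1 mouse (3 without ecig mouse 1, against 5.12% of all, 5 without ecig mouse 3, 3.06%, 3 without sham mouse 2, 2.24%, and 2 without sham mouse 1, 2.49%, or sham mouse 4, 2.91%). Higher ones numbered 1 to 2 (2 without ecig mouse 1, 5.13%) and 3 without ecig mice 2 and 4 (5.44%). The replicate block changed no adjusted call. Deviations of same-numbered mice correlated at 0.08, -0.24, 0.08 and 0.08, against -0.35 to 0.43 for mice of different numbers. These correlations cannot settle whether the numbers mark a pairing, and the labels name them only as biological replicates.

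Single genes turned direction as follows, where the cause was not tested beyond the choice of mice. Without ecig mice 2 and 4 the difference was 0.0537 for Sdha, 0.0122 for Uqcrc1, -0.0008 for Uqcrh, 0.0098 for Cox5a, 0.0117 for Cox5b, 0.0491 for Cox6b1, 0.0614 for Cox7c, 0.012 for Cox4i2, 0.271 for Cox6b2, -0.0996 for Cox7a1 and -0.129 for Cox8c. It was 0.0887 for Atp5o, 0.0209 for Atp5mpl, 0.0388 for Atp5h, 0.162 for Atp5g1, 0.0562 for Atp5g2 and 0.0689 for Atp5g3, and 0.0538 for Uqcc2, 0.064 for Atpaf2, 0.0273 for Cs, 0.0602 for Mdh2 and 0.0185 for E2f1. With array weights it was 0.0103 for Cox7c and -0.0312 for Cox7a1. Over the fits without 1 mouse, it ran from -0.00663 to 0.0804 for Uqcrh, -0.0661 to 0.025 for Cox7c, -0.0577 to 0.00085 for Cox4i2, -0.0796 to 0.101 for Cox7a1 and -0.0332 to 0.175 for Cox8c.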
